A study of Homo sapiens with 8 samples.

Results

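The heat shock and cytosolic chaperone genes described here are 10 genes named by symbol: the transcription factor HSF1 and the chaperone and cochaperone genes HSPA1A, HSPA1B, HSPA8, HSPH1, DNAJB1, HSP90AA1, HSP90AB1, BAG3 and HSPB1. They were found by symbol, with the estimated read counts of all matched transcripts summed per gene, and all 10 were present among the 34792 genes so summed. All 10 were also among the 15993 genes that passed the filter on low counts. RNA was sequenced from A673/TR/shFEZF1 cells. The A673 line was derived from an Ewing sarcoma and bears the EWSR1-FLI1 fusion, A673/TR is a single clone of it that constitutively expresses the tetracycline repressor, and the shFEZF1 derivative makes an shRNA against the transcription factor FEZF1 when given doxycycline. The study compared cultures without and with FEZF1 silencing: 4 control cultures were left untreated and 4 cultures received doxycycline (1 µg/mL) for 72 h, with 1 culture of each kind from the polyclonal population (bulk) and from clones 3, 5 and 6. All 8 cultures carried the tetracycline repressor and the inducible shRNA and grew in the selecting antibiotics, and the clones had been picked by the authors for strong FEZF1 inhibition. No doxycycline culture without the shRNA and none with another shRNA was analysed here, so doxycycline itself, loss of FEZF1 and other effects of the shRNA cannot be told apart.

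Heat shock proteins are molecular chaperones that hold, fold and refold other proteins. The HSP70 proteins bind unfolded stretches, J-domain proteins such as DNAJB1 deliver clients and speed their ATP cycle, HSP110 proteins such as HSPH1 and BAG-domain proteins such as BAG3 release the nucleotide, and HSP90 dimers mature kinases and receptors with help from their own cochaperones. HSF1 is the main transcription factor of the heat shock response: it is held inactive by chaperones, and when unfolded proteins accumulate, as on heat or on loss of proteasome function, it forms trimers and binds heat shock elements in the promoters of chaperone genes. Some members, HSPA8 and HSP90AB1 above all, are abundant in unstressed cells, whereas HSPA1A, HSPA1B and HSPA6 are known as stress-inducible.

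HSPA1A, HSPA1B and BAG3 rose with doxycycline, by 1.21-fold to 1.40-fold, and each was higher in 4 of 4 pairs of cultures. HSPA1A and HSPA1B encode the stress-inducible HSP70 protein, and BAG3 is a cochaperone that links HSP70 clients to autophagy. None of the 10 genes was called lower, where called means an adjusted p under 0.05. For comparison, 3.73% of the 15993 genes tested were called higher and 3.91% lower. The other 7, which include HSF1 itself, the constitutive HSP70 gene HSPA8 and both HSP90 genes, had log2 fold changes between -0.03 and 0.12 and were not called. The median log2 fold change was 0.07 over the 10 genes and 0.0042 over all genes tested. All 3 calls rest on comparing cultures within an origin, and none of them was made when origin was left out of the fit. The samples are bulk RNA, in which more RNA per cell and more cells that express a gene cannot be told apart.

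Depth in the 8 libraries was 26719886 to 42422421 reads assigned to transcripts, of which 89.89% to 91.12% were matched to a gene. The libraries of clone 6 were the smallest (28170989 control, 26719886 doxycycline) and the polyclonal control was the largest. All 7 Ewing sarcoma markers passed the filter on low counts, with CD99 at a mean of 1524 CPM in controls, where CPM are counts relative to the TMM-normalized library size. Of these 7 markers 2 were called higher with doxycycline and 1 lower: NR0B1 went from 63.1 to 99.8 CPM on average (log2 fold change 0.67, edgeR adjusted p = 0.00745), NKX2-2 from 64.6 to 79.6 CPM (0.30, adjusted p = 0.0414) and LIPI from 225 to 183 CPM (-0.30, adjusted p = 0.0203). The part of these changes in the results was not tested. Of the markers of other cell types PTPRC, CDH5 and ALB had at most 2.1, 0 and 1 reads in any library, while EPCAM and PECAM1 were tested at control means of 0.499 and 0.361 CPM. EPCAM and PECAM1 were higher with doxycycline in 4 of 4 pairs, at means of 1.22 and 0.68 CPM, neither of them called, and their part in the results was not tested. The targeted gene, FEZF1, was at 96.4, 70.5, 107 and 74.4 CPM in the control cultures of the polyclonal population and clones 3, 5 and 6, and at 60.6, 43.0, 60.8 and 36.4 CPM in the same order with doxycycline. It was lower in 4 of 4 pairs (log2 fold change -0.81, SE 0.0726, adjusted p = 0.00594, and 0.29 without origin in the fit). Throughout, doxycycline was compared with control in edgeR's quasi-likelihood test with origin as a block, Benjamini-Hochberg adjusted over all genes tested, which called 596 genes higher and 625 lower. The labels do not say that cultures were grown or treated independently of each other. The p-values of this fit therefore measure only the spread left between these cultures once origin and treatment are fitted.

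The inducible HSP70 genes HSPA1A and HSPA1B lie on chromosome 6 of GRCh38, from 31815543 to 31817942 and from 31827738 to 31830254. In the polyclonal population and clones 3, 5 and 6, HSPA1A was at 201, 263, 297 and 135 CPM in the control cultures. In the doxycycline cultures, in the same order, it was at 245, 397, 496 and 169 CPM. Every doxycycline culture lay above its own control, but the doxycycline culture of clone 6 lay below the other 3 controls. The mean went from 224 ± 71.6 to 326 ± 147 CPM (SD, n = 4 each), and the paired log2 fold change was 0.49 (SE 0.0822, 95% confidence interval 0.29 to 0.68; edgeR adjusted p = 0.0189).

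HSPA1B was at 137, 192, 201 and 94.6 CPM without and at 179, 274, 313 and 116 CPM with doxycycline. The order of the origins was that of HSPA1A, with clone 5 highest and clone 6 lowest in both conditions. The mean went from 156 ± 49.8 to 221 ± 89.7 CPM (SD, n = 4 each), with a log2 fold change of 0.46 (SE 0.0664, interval 0.31 to 0.62; edgeR adjusted p = 0.0118). For both genes clones 3 and 5, which had the higher control levels, also had the larger log2 ratios. The log2 ratio of HSPA1A was 0.59 in clone 3 and 0.74 in clone 5, and 0.28 in the polyclonal population and 0.32 in clone 6. Whether the response differed between origins was not tested, since each origin had 1 culture per condition.

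These 2 genes share most of their transcript sequence: 75.1% of the 50-base stretches of the HSPA1A transcript also occur in HSPA1B, and 71.6% of those of HSPA1B in HSPA1A. How Salmon divided reads between them is therefore uncertain, and the ratio of HSPA1A to HSPA1B counts lay between 1.37 and 1.58 in the 8 libraries. Their sum does not depend on that division. It was 337, 455, 498 and 230 CPM in the controls and 424, 671, 809 and 284 CPM with doxycycline, and it rose as a single feature (log2 fold change 0.48, SE 0.0746, edgeR adjusted p = 0.0155).

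BAG3, on chromosome 10 from 119651380 to 119677819, was at 112, 181, 143 and 102 CPM in the controls of the polyclonal population and clones 3, 5 and 6. With doxycycline it was at 128, 211, 195 and 120 CPM. Clone 3 was highest and clone 6 lowest in both conditions, and the 4 within-origin differences were smaller than the distance between these clones. The mean went from 135 ± 35.5 to 163 ± 46.3 CPM (SD, n = 4 each), with a log2 fold change of 0.27 (SE 0.0598, interval 0.13 to 0.41; edgeR adjusted p = 0.0392). BAG3 reads were assigned to a curated and a predicted RefSeq transcript, and the curated one, NM_004281.4, took 74.9% to 84.7% of them. It went from 95.0 ± 22.5 to 123 ± 35.5 CPM of assigned reads and was higher in each pair, whereas the predicted one, XM_005270287.2, was at 26.1 ± 9.32 and 25.3 ± 6.65 (SD, n = 4 each). The transcripts were not tested separately.

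The share of all genes that, like these 3, were higher in 4 of 4 pairs was 17.3%. Without origin in the fit HSPA1A, HSPA1B and BAG3 had edgeR adjusted p-values of 0.865, 0.872 and 0.944. In that fit 0 of the 10 genes were called, and 0 had an unadjusted p under 0.05. It called 0.00625% of all genes, a single gene, PSMB2. DESeq2 with the block called the 3 genes (adjusted p = 1.56e-06 for HSPA1A, 4.80e-08 for HSPA1B and 0.00249 for BAG3) among 12% of all genes, and without the block it called 0 of the 10 among 1.44% of all genes. HSPA1A was no longer called by edgeR without the clone 3 pair (adjusted p = 0.0597) or the clone 5 pair (0.0808), and HSPA1B without the clone 5 pair (0.0625). BAG3 was no longer called when any 1 of the pairs was left out (0.078 to 0.199).

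**Figure D1:**
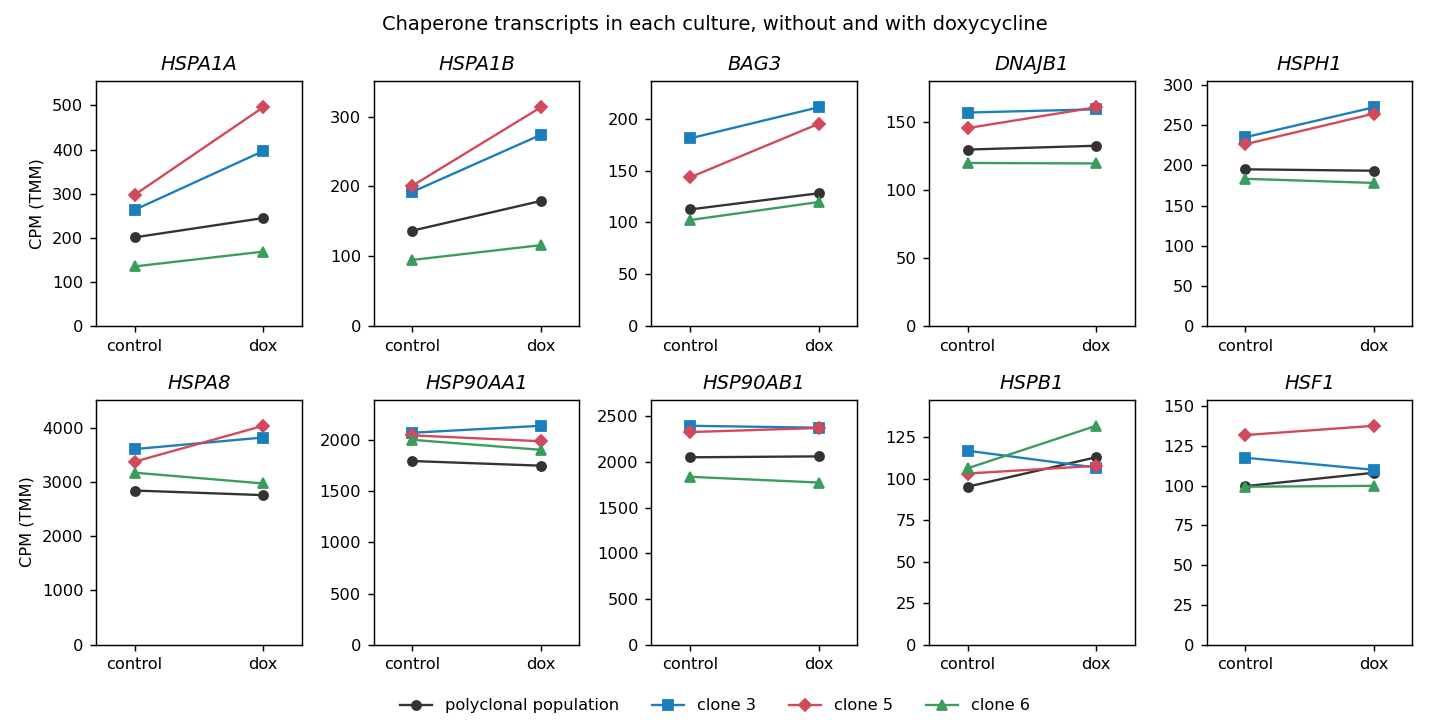
CPM after TMM scaling (vertical axes from 0, a scale for each gene) of the 10 genes in the control and doxycycline (dox) culture of each origin; each line joins the 2 cultures of an origin. The lines of HSPA1A, HSPA1B and BAG3 slope upward in all 4 origins, while clone 6 starts lowest for these 3 genes and ends below the controls of clones 3 and 5.

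A heat shock element is built of short units of the letters GAA or their complement TTC, each set apart from the next by a pair of free bases. Promoter windows from 250 bases before to 50 bases after a transcript start were available from RefSeq (GRCh38.p14) for 9 of the 10 genes, in 14 windows. They were searched for 2 neighbouring units, GAANNTTC or TTCNNGAA, each of which reads the same on both strands, and for 3 neighbouring units in alternating orientation, which contain both of these. At least 1 pair of units was present in 8 windows of 7 genes, and 13.5% of all 35116 windows of that length hold one (6.77% GAANNTTC and 7.74% TTCNNGAA). The element of 3 units was present in 3 windows, 1 each of HSPA8, HSP90AA1 and HSP90AB1, and in 0.49% of all windows. The genes had been chosen as known targets of HSF1. A higher share than over all windows therefore comes with that choice and is not a result of these data.

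The upstream sequence of HSPA1A and HSPA1B is shown because these near-identical neighbours were the most changed of the 10 genes, and that of the other genes because it holds the element letters; in each line the capitals mark the pairs and trios of units found, read 5′ to 3′ on the gene's strand.
HSPA1A, chr6:31815293-31815542, plus strand: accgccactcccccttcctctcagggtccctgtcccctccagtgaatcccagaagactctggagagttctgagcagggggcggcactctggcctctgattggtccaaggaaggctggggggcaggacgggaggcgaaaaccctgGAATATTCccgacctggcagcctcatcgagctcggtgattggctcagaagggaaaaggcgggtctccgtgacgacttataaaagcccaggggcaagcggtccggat
HSPA1B, chr6:31827488-31827737, plus strand: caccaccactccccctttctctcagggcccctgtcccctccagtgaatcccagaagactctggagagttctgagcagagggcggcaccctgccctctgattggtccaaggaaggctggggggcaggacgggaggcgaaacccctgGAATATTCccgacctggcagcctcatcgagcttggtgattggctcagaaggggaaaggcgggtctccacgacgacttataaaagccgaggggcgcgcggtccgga
HSPA8, chr11:123062171-123062374, minus strand: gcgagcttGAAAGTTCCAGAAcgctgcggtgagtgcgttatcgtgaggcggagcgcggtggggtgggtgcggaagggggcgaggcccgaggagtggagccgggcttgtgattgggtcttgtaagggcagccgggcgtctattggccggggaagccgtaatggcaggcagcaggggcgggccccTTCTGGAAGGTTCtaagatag
HSP90AA1, chr14:102087090-102087149, minus strand: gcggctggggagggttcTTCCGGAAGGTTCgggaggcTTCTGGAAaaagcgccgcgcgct
HSP90AB1, chr6:44247770-44247851, plus strand: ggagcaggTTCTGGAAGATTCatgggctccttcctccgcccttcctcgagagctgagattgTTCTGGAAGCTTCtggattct
DNAJB1, chr19:14518427-14518486, minus strand: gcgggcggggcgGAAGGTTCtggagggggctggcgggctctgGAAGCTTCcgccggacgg
HSPB1, chr7:76302464-76302523, plus strand: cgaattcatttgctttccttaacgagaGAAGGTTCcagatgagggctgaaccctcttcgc
The HSPA1A and HSPA1B lines run to the base before the transcript start. Aligned end to end, the full windows of HSPA1A and HSPA1B were 92.0% identical (277 identical positions, 22 mismatches and 2 gaps), and each held 1 pair, from -106 to -99 bases and from -105 to -98 bases counted from the start as 0. HSPA8 held an element of 3 units from -230 to -218 and another from -55 to -43. The windows of BAG3 and HSPH1 held no exact match to these letters. Units that differ from GAA or TTC were not searched for in any window. These are matches of letters, and HSF1 binding was not measured.

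HSPA8, the constitutive HSP70 gene (chromosome 11, 123057489 to 123062462), was at 2839, 3603, 3370 and 3168 CPM in the controls of the polyclonal population and clones 3, 5 and 6. With doxycycline it was at 2754, 3817, 4033 and 2969 CPM. It was higher in clones 3 and 5 and lower in the polyclonal population and clone 6. The log2 fold change was 0.05 (interval -0.10 to 0.20; edgeR adjusted p = 0.69). HSPA1A had 1.40-fold the reads of its control and HSPA8 1.04-fold, and the difference between these genes was not tested.

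HSPH1, the HSP110 nucleotide exchange factor of HSP70 (chromosome 13, 31134973 to 31162388), was at 195, 235, 226 and 183 CPM without and at 193, 272, 264 and 178 CPM with doxycycline. As with HSPA8, the value was higher in clones 3 and 5 and slightly lower in the other 2 origins (log2 fold change 0.10, interval -0.05 to 0.24; edgeR adjusted p = 0.406). DNAJB1, the J-domain partner of HSP70 (chromosome 19, 14514769 to 14560391), was at 130, 157, 145 and 120 CPM without and at 132, 159, 161 and 119 CPM with doxycycline. Its largest difference was in clone 5 (log2 fold change 0.05 over the 4 pairs, interval -0.07 to 0.17; edgeR adjusted p = 0.622).

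The HSP90 genes stayed near their control values. HSP90AA1, the inducible HSP90 gene (chromosome 14, 102080742 to 102139749), was at 1799, 2076, 2050 and 2006 CPM in the controls and at 1753, 2144, 1993 and 1909 CPM with doxycycline. It was lower in 3 of the 4 pairs, by little (log2 fold change -0.03, interval -0.14 to 0.08; edgeR adjusted p = 0.791). HSP90AB1, the constitutive HSP90 gene (chromosome 6, 44246194 to 44253883), was at 2051, 2396, 2327 and 1837 CPM in the controls and at 2061, 2375, 2372 and 1775 CPM with doxycycline. The log2 fold change of HSP90AB1 was -0.01 (interval -0.11 to 0.10; edgeR adjusted p = 0.947).

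HSPB1, a small heat shock protein that binds unfolded clients without ATP (chromosome 7, 76302673 to 76304292), was at 95.1, 117, 103 and 106 CPM in the controls and at 113, 107, 108 and 132 CPM with doxycycline. Clone 3 went down and the other 3 origins up, most in clone 6 (log2 fold change 0.12, interval -0.06 to 0.31; edgeR adjusted p = 0.392). Reads of HSPA8, HSP90AA1, HSP90AB1 and HSPB1 can be shared with other genes, since 13.5% to 19.7% of their 50-base stretches occur in another gene. The largest shares with a single gene were 6.91% (HSPA8P1), 13.7% (HSP90AA2P), 16.3% (HSP90AB3P) and 13.5% (HSPB1P1) in the same order. All shares of 50-base stretches were counted in GENCODE transcripts, whereas the reads were assigned to RefSeq transcripts.

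HSF1, the regulator, lies on chromosome 8 from 144291604 to 144314720. It was at 99.7, 118, 132 and 99.3 CPM in the controls and at 108, 110, 138 and 99.9 CPM with doxycycline, differences within the spread of the cultures (log2 fold change 0.02, interval -0.11 to 0.15; edgeR adjusted p = 0.847). The curated HSF1 transcript, NM_005526.4, took 71.7% to 88.5% of the reads. It was higher in each pair, at 75.3 ± 13.2 and 82.7 ± 11.1 CPM of assigned reads (SD, n = 4 each). The predicted XM_005272315.3 was lower in each pair, at 17.8 ± 3.53 and 15.3 ± 4.54. With curated transcripts only, the log2 fold change of HSF1 was 0.13 and it was not called (edgeR adjusted p = 0.378). HSF1 acts mainly through trimer formation and phosphorylation of existing protein, which RNA counts do not measure. The matched HSF1 transcripts held 93.0% of the reads implied by the authors' mean for the gene, against at least 98.9% for the other 9 genes.

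**Figure D2:**
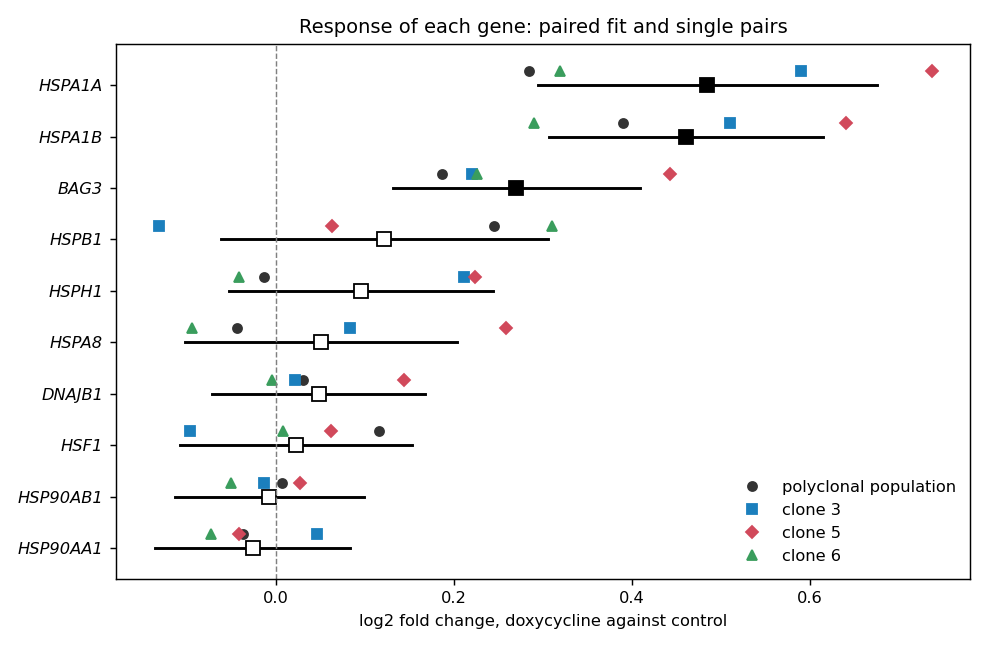
Log2 fold change of each gene, doxycycline against control: squares are the paired edgeR estimates with 95% confidence intervals as lines, filled where the adjusted p was under 0.05, and the coloured symbols above each line are the log2 ratios of the single pairs. HSPA1A, HSPA1B and BAG3 have all 4 pairs to the right of 0, and the intervals of the other 7 genes include 0.

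The second comparison asked whether the genes differed between the 4 origins, tested jointly in the same fit with treatment held constant. Of the 10 genes 8 were called, against 39.4% of all genes. The smallest adjusted p-values were those of HSPA1B (0.000486), HSPA1A (0.000903) and BAG3 (0.00128; edgeR's quasi-likelihood F-test). Across the 4 controls the highest culture had 2.20-fold the lowest for HSPA1A, 2.12-fold for HSPA1B and 1.77-fold for BAG3. For the other 7 genes the controls spanned 1.15-fold to 1.33-fold. For each of the 10 genes this span exceeded the fold change with doxycycline. A span from lowest to highest culture and a paired fold change are unlike measures. HSP90AA1 (adjusted p = 0.071) and HSPB1 (0.414) were not called.

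Clone 6 was the lowest control for 7 of the 10 genes and the polyclonal population for 3, while clone 3 was highest for 7 and clone 5 for 3. The near-identical HSPA1A and HSPA1B are 2 of the 7 for which clone 6 was lowest. With doxycycline clone 6 was lowest for 7 genes and highest for 1. Clone 5 was then highest for 5, and clone 3 highest for 4 and lowest for 1. How often each origin was lowest or highest over all genes was not counted. Each origin has 1 culture per condition, and an origin cannot be told apart from the handling of its cultures.

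Levels of different genes can be set side by side only per transcript length, as TPM, the abundance that Salmon corrects for transcript length. In the controls HSPA8 was highest at 2503 ± 204 TPM, followed by HSP90AB1 at 1461 ± 183, HSP90AA1 at 1048 ± 37.8 and HSPB1 at 278 ± 19.3 TPM (SD, n = 4 each). The lowest control of each of these 4 genes lay above the highest control of the next gene, HSPA1A included. HSPA8 ranked 37 by TPM among 26060 genes. Below them came HSPA1A at 163 ± 50.9, DNAJB1 at 108 ± 13.2, HSPA1B at 108 ± 33.7, HSPH1 at 107 ± 12.9, HSF1 at 91.6 ± 11.5 and BAG3 at 91.2 ± 23.7 TPM, where each gene overlapped its neighbour in the order. With doxycycline HSPA1A was at 239 ± 109 and HSPA1B at 154 ± 64.0 TPM, still far under HSPA8 at 2631 ± 513 TPM. The genes that rose belonged to the less abundant 6 of the 10.

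**Figure D3:**
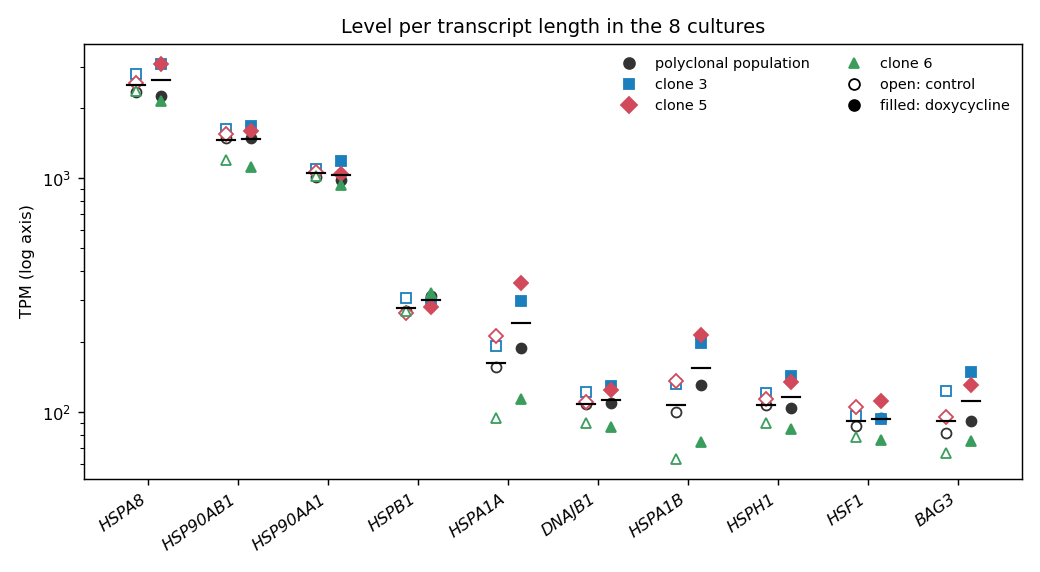
TPM (log axis) of the 10 genes in the 8 cultures, ordered by the mean of the 4 controls; open symbols are controls, filled symbols doxycycline cultures and short bars the group means. HSPA8 and the HSP90 genes stand at 937 TPM or above in each culture, and the spread over origins is widest for HSPA1A and HSPA1B.

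Other genes of the cytosolic chaperone system were taken from 7 lists that hold 52 genes, of which 45 were tested. Of these 4 were called higher and 0 lower, against 3.73% and 3.91% of all genes, at a median log2 fold change of 0.07. The fit without origin called 0 of the 45, and curated transcripts alone gave 0. With 1 pair left out the count was 1 without clone 3 and 0 without each of the others. DESeq2 with the block called 11 of the 45, against 12% of all genes. FKBP5 and BAG5, among these 11, were higher in 0 of 4 pairs (edgeR log2 fold changes -0.28 and -0.19, DESeq2 adjusted p = 0.0306 and 0.0481). HSPA6, a strictly inducible HSP70 gene, had the largest change of the 45 but was barely expressed, and how much of its sequence other genes share was not measured. It was at 0.633, 2.21, 2.25 and 0.362 CPM in the controls of the polyclonal population and clones 3, 5 and 6, and at 1.63, 2.70, 5.87 and 1.09 CPM with doxycycline (log2 fold change 1.10, SE 0.262, edgeR adjusted p = 0.0461). HSPA2, an HSP70 gene best known from testis, was the other one called of 7 HSP70 and HSP110 genes (log2 fold change 0.29, edgeR adjusted p = 0.0469). HSPA4, an HSP110 protein, was higher in 4 of 4 pairs and was not called (log2 fold change 0.19, edgeR adjusted p = 0.0558).

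Of 8 other J-domain genes DNAJB2, which passes ubiquitylated clients to the proteasome, was called (31.5 to 39.0 CPM on average, log2 fold change 0.31, edgeR adjusted p = 0.0314). Of 8 other HSP70 cochaperones BAG4 was called (56.6 to 69.5 CPM, log2 fold change 0.30, edgeR adjusted p = 0.0293). None was called of 9 HSP90 cochaperones, with STIP1 at 606 and 636 CPM and PTGES3 at 605 and 630 CPM without and with doxycycline. None was called of 8 subunits of the chaperonin TRiC, of HSF2, HSF4 and HSBP1, or of the 2 small heat shock proteins with enough reads. CRYAB, one of these, was at 2.87 and 3.77 CPM. Unadjusted p-values under 0.05 in the paired edgeR fit numbered 3, 1, 0 and 1 in these 4 lists, against 3970 of all 15993 genes tested. DESeq2 with the block called 3, 1, 0 and 0, against 12% of all genes. HSPB2, HSPB6, HSPB7, HSPB8, CRYAA, DNAJA4 and HSF5 had too few reads to be tested, with at most 49.5 reads (DNAJA4) in any library.

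No chaperone of other compartments was called either. Over all genes 3.73% were called higher and 3.91% lower, so 0 calls in lists this short do not set these genes apart. Of 6 mitochondrial chaperones 0 were called (2 at an unadjusted p under 0.05, 1 by DESeq2 with the block), and the median log2 fold change was 0.05. The 1 called by DESeq2 with the block was HSPA9, which was higher in 4 of 4 pairs (log2 fold change 0.21, edgeR adjusted p = 0.0503, DESeq2 adjusted p = 0.00245). Of 10 chaperones of the endoplasmic reticulum 0 were called (3 at an unadjusted p under 0.05, 3 by DESeq2 with the block), and 7 had negative log2 fold changes, such as HSP90B1 with 1160 CPM in controls and 1038 CPM with doxycycline. The 3 called by DESeq2 with the block, HSP90B1 among them, were lower in 4 of 4 pairs.

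Among genes read beside the chaperones, PSMB2, which encodes a catalytic-core subunit of the proteasome, fell in each pair. It was at 133, 156, 158 and 150 CPM in the controls and at 61.4, 54.8, 53.5 and 47.8 CPM with doxycycline, with no overlap (log2 fold change -1.46, SE 0.0897, edgeR adjusted p = 0.00483). In the polyclonal population and clones 3, 5 and 6 its log2 ratios were -1.11, -1.50, -1.55 and -1.64, and those of HSPA1A in the same order were 0.28, 0.59, 0.74 and 0.32. Of the other 30 proteasome subunits 15 were called higher and 0 lower, against 3.73% of all genes called higher. PSMB3 went from 98.2 to 131 CPM, PSMB7 from 270 to 351 CPM and PSMA5 from 178 to 229 CPM. Without origin in the edgeR fit, PSMB2 was the only proteasome subunit called, so none of these rises was. Heat shock genes and proteasome subunits were read in the same libraries, and what links their levels was not tested.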

How the data were processed

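The authors sequenced poly(A) RNA from 8 cultures (TruSeq stranded mRNA kit, paired-end reads) and quantified it with Salmon on GRCh38 RefSeq transcripts. Per library they deposited estimated counts and TPM of 158867 transcripts with lengths (one file differs from the others only in row order and number format); their DESeq2 table, which also holds fold changes and p-values, was used only for the authors' mean signal of normalized counts. No columns of other series were present.

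Transcripts were matched to gene symbols (115325, or 72.6%) and the deposited estimated counts were summed per gene and rounded to whole numbers. TPM values were summed per gene, described and not tested. Depth was 26719886 to 42422421 assigned reads. Genes were filtered with filterByExpr, scaled by TMM and tested with edgeR 4.0.16 (R 4.3.3) in a model of origin and treatment, with Benjamini-Hochberg adjustment at 0.05. Log2 ratios of single pairs used a pseudocount of 0.5. Differences among origins were tested with a joint test of 3 coefficients. Alternatives were no replicate block, DESeq2 1.42.0 with and without it, DESeq2's size factors, other filters, a length offset, curated transcripts only, HSPA1A and HSPA1B summed, and leaving out each pair. Scripts were tested on simulated data; Python 3.11.15 drew the plots and searched promoters.

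The 2 cultures of an origin come from the same cells, which gives the pairing. Their deviations from the group means correlated at 0.406 (polyclonal population), 0.546 (clone 3), 0.590 (clone 5) and 0.582 (clone 6), and those of different origins at -0.395 to 0.179. Subtracting a group mean makes the deviations of each gene cancel within a group. Where correlations of the same origin are positive, those of different origins are thereby pushed to negative values.

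The members and the gene lists were chosen with earlier results of these data known. Named genes were the 10 members, FEZF1, PSMB2 and, from each other list, at most 4 of the genes called, by size of change, or, where none was called, at most 2 with the highest mean CPM. CD99, the markers of other cell types, HSPA4, FKBP5, BAG5 and the genes with too few reads fall outside this rule and were named after their values were seen. The list of other genes known to rise on proteasome inhibition is not reported here.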

Additional observations from a re-analysis of the deposited data

Results flagged for a closer look

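One log2 ratio stood apart from the others of its gene. BAG3 had a log2 ratio of 0.443 in clone 5, against 0.187 to 0.226 in the other 3 pairs. Over 36 groups of 4 values examined for a value apart, this was the 1 found, and 1.8 would be found by chance.

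The pairs of 7 genes pointed in opposite directions between origins, and none of these differences was tested, since each origin had 1 pair. HSPA8 and HSPH1 were higher with doxycycline in clones 3 and 5 and lower in the polyclonal population and clone 6, with lowest log2 ratios of -0.0936 and -0.0409, both in clone 6. HSP90AA1 was higher in clone 3 and lower in the other 3 origins, lowest at -0.0721 in clone 6. HSP90AB1 was higher in the polyclonal population and clone 5, with a lowest log2 ratio of -0.0499 in clone 6. DNAJB1 was lower in clone 6 alone, at -0.00447. HSF1 and HSPB1 were lower in clone 3 alone, at -0.0961 and -0.131.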

How the results depend on the processing

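The count of genes called with doxycycline, 1221 in the paired edgeR fit, was 1 without the replicate block (1155 at an unadjusted p under 0.05), 1920 with DESeq2 and the block, 231 with DESeq2 and no block, 493 with curated transcripts only, and 175 (without clone 5) to 699 (without the polyclonal pair) when 1 pair was left out. Of the 10 genes 3 were called, and 0 were called without the block by edgeR or DESeq2; with 1 pair left out the count was 0 (without clone 5) to 2, and 1 without clone 3. HSPA1A and HSPA1B summed counted as 1 of 2 features called. Of the 45 other cytosolic chaperones 4 were called, against 0 without the block, 11 with DESeq2 and the block, 1 with DESeq2 and no block, 0 with curated transcripts only and 0 to 1 with 1 pair left out. Genes called among origins went from 6300 to 4054 with curated transcripts only and to 2970 (without clone 6) to 5300 with 1 origin left out. Leaving out 1 pair changed the direction of 4 genes that were not called: HSF1 (-0.013 to 0.063), HSPA8 (-0.034 to 0.099), DNAJB1 (-0.00031 to 0.065) and HSP90AB1 (-0.035 to 0.0066). HSPA1A, HSPA1B and BAG3 kept a positive log2 fold change in each alternative. The block changed no other call among the 10 genes in edgeR. The scalings moved the median of all genes by little (0.0042 with TMM, -0.0085 with DESeq2's size factors, 0.0038 with the length offset). Why the calls moved was not tested, except that each fit with a pair left out had fewer cultures.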
